A study of Mus musculus with 6 samples.

Results

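CpG methylation was examined at 8 genes of the calcineurin and NFAT pathway in the dentate gyrus. They were the transcription factor genes Nfatc1, Nfatc2, Nfatc3, Nfatc4 and Nfat5, the calcineurin subunit genes Ppp3ca and Ppp3r1, and the calcineurin regulator gene Rcan1. A CpG site belonged to a gene when it lay between 1 kb upstream of the gene start and the gene end in GENCODE M21, with the strand of the gene taken into account. This rule gave 803 of the 890041 CpG sites with a value in every library. Sites within 1 kb of the start of any transcript of the gene were called promoter sites (626), and the other 177 were called gene-body sites. No measured value entered the rule, but the genes were chosen with earlier results of these data known.

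The data were reduced representation bisulfite sequencing (RRBS) of micro-dissected dentate gyrus, the hippocampal subregion of the granule neurons, in 6 mice, all females of the strain C57BL/6JRj and 4.5 months old. RRBS sequences restriction fragments rich in CpGs after bisulfite conversion, so that the share of reads with an unconverted cytosine gives the methylation level of that cytosine. In all, 3 mice lived in standard cages (STD) and 3 in an enriched environment (ENR) from young adulthood until tissue collection, and no genetic change or drug was applied in either group. Each library came from 1 mouse, the ENR mice shared their enclosure, and the tissue was bulk, so that a change in methylation within a cell type and a change in the mix of cell types cannot be told apart. Levels are given in percent and differences as ENR minus STD in percentage points. How many reads stand behind a percentage is not known, except that the authors kept cytosines with at least 10.

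Calcineurin is a phosphatase that is switched on by calcium and calmodulin. It consists of a catalytic A subunit, encoded among others by Ppp3ca, and a calcium-binding B subunit, encoded by Ppp3r1. Active calcineurin removes phosphates from the NFATc transcription factors, which then enter the nucleus, whereas Nfat5 responds to osmotic stress and lacks the calcineurin-binding region. Rcan1 binds and restrains calcineurin, and a promoter within the Rcan1 gene is itself a target of NFAT. In neurons the pathway links calcium entry through channels and receptors to transcription.

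The plus-strand reference sequence (GRCm38, which is mm10) is shown for the stretches that the results below turn on, with each CpG that had a value in capitals. The first stretch is part of a coding exon of Nfatc4 with the site that had the largest difference without overlap between groups among the NFAT factors. The second is an intron stretch of Nfatc2, and the next 2 are intron stretches of Ppp3ca, in which several neighbouring sites were lower in ENR. The fifth surrounds the Ppp3r1 site with the largest difference. These 5 stretches were chosen after their values were seen.
Nfatc4 chr14:55827053-55827162: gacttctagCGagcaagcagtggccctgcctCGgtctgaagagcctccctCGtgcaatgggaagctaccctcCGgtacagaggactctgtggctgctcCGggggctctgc
Nfatc2 chr2:168553503-168553759: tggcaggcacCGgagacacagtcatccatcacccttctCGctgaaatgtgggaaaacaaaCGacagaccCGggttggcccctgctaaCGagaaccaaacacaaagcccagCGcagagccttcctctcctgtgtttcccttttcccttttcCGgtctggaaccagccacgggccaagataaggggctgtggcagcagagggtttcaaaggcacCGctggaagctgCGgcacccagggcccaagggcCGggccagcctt
Ppp3ca chr3:136676897-136676990: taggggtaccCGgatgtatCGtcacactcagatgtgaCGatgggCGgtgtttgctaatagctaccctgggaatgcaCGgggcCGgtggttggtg
Ppp3ca chr3:136760169-136760379: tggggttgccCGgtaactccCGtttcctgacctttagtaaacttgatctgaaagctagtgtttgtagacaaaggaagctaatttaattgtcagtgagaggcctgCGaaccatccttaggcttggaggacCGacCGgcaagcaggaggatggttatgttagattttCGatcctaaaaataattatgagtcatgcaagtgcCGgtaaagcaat
Ppp3r1 chr11:17178947-17178967: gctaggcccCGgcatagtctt

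All 803 sites were CpGs in the reference. They belonged to 668 CpGs, 135 of which had a value on both strands. At those 135 CpGs the median difference between strands was 0 in every library, and the strands lay within 10 percentage points of each other at 113 to 122 CpGs per library. The genes were covered unequally. Ppp3ca had 196 sites, Nfatc1 184, Nfatc2 114, Ppp3r1 109, Nfatc4 75, Nfat5 58, Rcan1 48 and Nfatc3 19. The body of Nfat5 held 0 sites, that of Nfatc4 held 1, and those of Nfatc3 and Ppp3r1 held 3 each. Most sites had low levels. The value was 0 in all 6 libraries at 285 sites (35.5%), and 579 sites (72.1%) had a mean under 10%, while 47 had a mean over 90%.

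Methylation was higher beyond 1 kb from the nearest transcript start than within it in both groups. Sites within 250 bp of a start had a mean of 5.22% ± 0.329 in STD and 5.46% ± 1.13 in ENR (SD, n = 3 mice each). Between 1000 and 5000 bp the means were 47.4% and 44.0%, and beyond 5000 bp they were 51.7% and 50.2%. By annotation, the mean was 2.03% at 113 sites upstream of the genes, 4.28% at 215 sites in untranslated regions, 19.7% at 377 intron sites and 35.9% at 98 coding sites. Coding sites differed by gene, with means of 84.9% over 16 sites in Nfatc2 and 87.5% over 5 sites in Rcan1, but 0.629% over 9 sites in Ppp3ca, whose covered coding sites lay beside its start.

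Across the genome, the median promoter level of 19240 genes with at least 3 promoter sites was 2.26%, and the median over the 8 genes was 4.12%. The median body level was 52.7% over 12285 genes and 50.6% over the 6 genes of the pathway with at least 3 body sites. Rcan1 and Nfatc4 had the highest promoter means among the 8 genes. The promoter and body means of every library are plotted by gene.

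**Figure D1:**
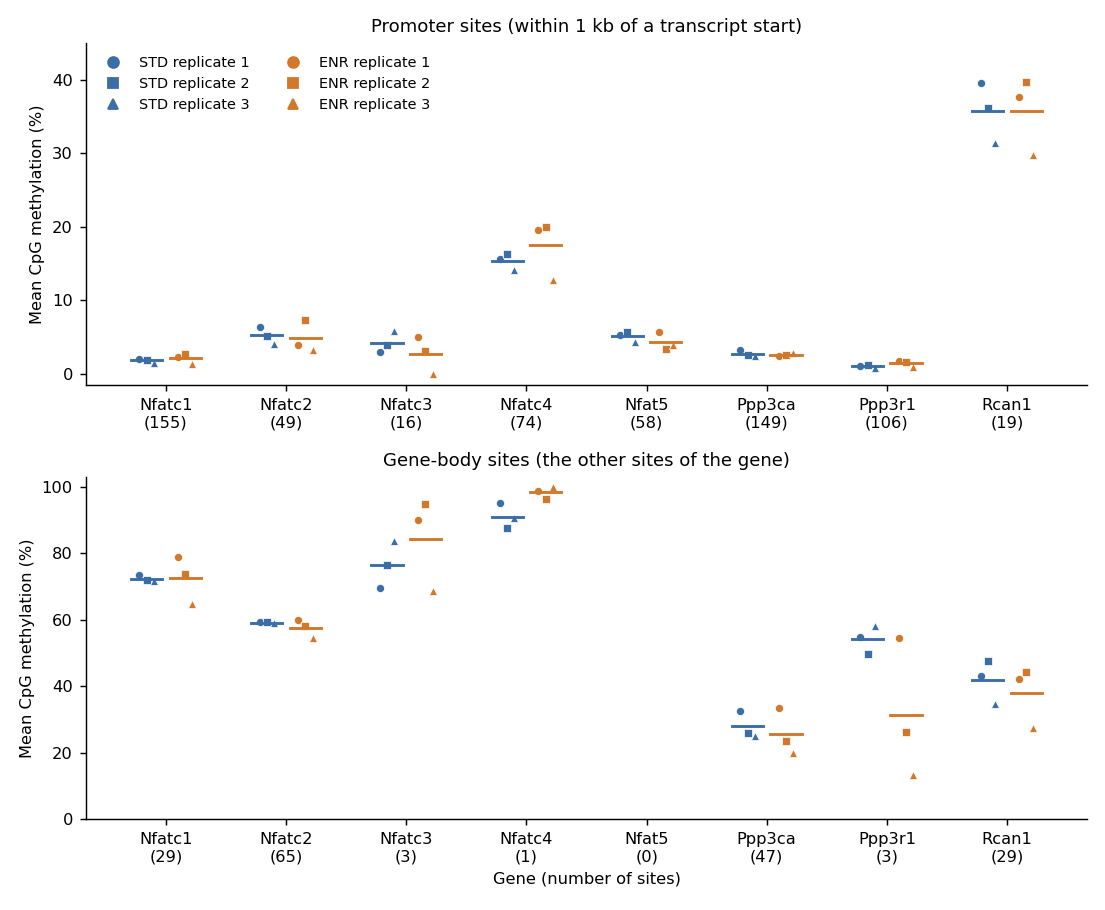
Mean CpG methylation in percent (vertical axis) over promoter sites (upper panel) and gene-body sites (lower panel) of each gene, with the number of sites in parentheses. Each symbol is 1 library, the short lines are group means, and the upper axis ends at 45%. Promoter means were under 10% in every library for 6 of the 8 genes, and STD and ENR overlapped for every gene except at the 1 body site of Nfatc4.

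Nfatc1 (chr18:80606205-80713071, minus strand, ENSMUSG00000033016.16) encodes an NFATc factor with several promoters. Its 155 promoter sites had means of 2.1%, 1.97% and 1.48% in STD and 2.35%, 2.7% and 1.41% in ENR. ENR held both the highest and the lowest library, and the difference of 0.299 points was not larger than the spread between mice (two-sided exact permutation test, p = 0.5, where 20 regroupings of 3 and 3 mice allow no p under 0.1). Its 29 body sites had means of 73.4%, 72.1% and 71.7% in STD and 78.9%, 73.8% and 64.8% in ENR. The ENR mice thus bracketed the STD mice. The starts of both sets of coding transcripts had low levels, 1.64% over 87 sites and 1.68% over 66 sites.

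Nfatc2 (chr2:168476410-168601657, minus strand, ENSMUSG00000027544.16) encodes another calcineurin-dependent factor. Promoter means were 6.4%, 5.17% and 4.15% in STD and 3.95%, 7.34% and 3.22% in ENR (difference -0.405, exact permutation p = 0.8). Over its 65 body sites the means were 59.2%, 59.3% and 58.9% in STD and 59.9%, 58.2% and 54.6% in ENR (difference -1.53, exact permutation p = 0.5). The STD mice lay within 1 point of each other in the body, while ENR replicate 3 was lower than the other 5 libraries. The outer coding start had a level of 1.28% over 26 sites and the inner one 9.29% over 23 sites.

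Nfatc3 (chr8:106058840-106130537, plus strand, ENSMUSG00000031902.10) had the fewest sites. Its 16 promoter sites had means of 2.94%, 3.89% and 5.9% in STD and 5.0%, 3.17% and 0.0553% in ENR (difference -1.5, exact permutation p = 0.5). ENR replicate 3 was close to 0, and the other ENR mice lay within the STD range. The 3 body sites had means of 76.6% ± 6.96 in STD and 84.4% ± 13.9 in ENR (SD, n = 3 mice each).

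Nfatc4 (chr14:55823144-55833943, plus strand, ENSMUSG00000023411.12) encodes an NFATc factor that is expressed in neurons. Nearly all of its 75 sites counted as promoter sites, since they lay within 1 kb of one of several transcript starts. Of these, 32 lay within 1 kb of the start of a retained-intron transcript inside the coding sequence. Promoter means were 15.6%, 16.3% and 14.1% in STD and 19.6%, 20% and 12.8% in ENR. ENR replicates 1 and 2 lay above all STD mice and ENR replicate 3 lay below them, and the difference of 2.14 points had p = 0.4 (exact permutation test). It was 4.48 points without ENR replicate 3, 1.08 without ENR replicate 1 and 0.854 without ENR replicate 2. At its single body site, in coding sequence, STD had 95.1%, 87.5% and 90.6% and ENR had 98.8%, 96.3% and 100%. The groups did not overlap at that site, as was the case at 3.99% of all sites in the table.

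Nfat5 (chr8:107293470-107379517, plus strand, ENSMUSG00000003847.16) had promoter means of 5.29%, 5.76% and 4.31% in STD and 5.7%, 3.39% and 4.01% in ENR (difference -0.755, exact permutation p = 0.4). ENR replicate 1 lay within the STD range and the other ENR mice lay below it. Of its 58 sites, 56 surrounded the main start at a level of 1.63%, and the other 2, both coding, lay near the start of a transcript annotated for nonsense-mediated decay and had 91.9%.

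Ppp3ca (chr3:136670124-136937727, plus strand, ENSMUSG00000028161.17), the catalytic subunit gene, had 149 promoter sites with means of 3.25%, 2.65% and 2.42% in STD and 2.43%, 2.6% and 2.88% in ENR. The ENR mice lay within the STD range (difference -0.136, exact permutation p = 0.7). Over the 47 body sites the means were 32.6%, 26.0% and 25.2% in STD and 33.4%, 23.5% and 19.9% in ENR (difference -2.33, exact permutation p = 0.6). ENR replicate 1 had the highest body mean and ENR replicate 3 the lowest.

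Ppp3r1 (chr11:17159263-17200375, plus strand, ENSMUSG00000033953.10), the regulatory subunit gene, had the lowest promoter level of the 8 genes. Its 106 promoter sites had means of 1.09%, 1.23% and 0.808% in STD and 1.83%, 1.59% and 0.918% in ENR (difference 0.402, exact permutation p = 0.3). Its 3 body sites had means of 54.9%, 49.6% and 58.1% in STD and 54.5%, 26.3% and 13.3% in ENR. This difference of -22.9 points was the largest of any promoter or body mean of the 8 genes, but ENR replicate 1 lay within the STD range (exact permutation p = 0.2). The limma fit across the promoters and bodies of all genes gave an unadjusted p of 0.0599 and an adjusted p of 1 for it. The difference was -13.8 points without ENR replicate 3 and -34.4 points without ENR replicate 1.

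Rcan1 (chr16:92391953-92470867, minus strand, ENSMUSG00000022951.16) had promoter means of 39.5%, 36.1% and 31.4% in STD and 37.6%, 39.6% and 29.8% in ENR over 19 sites. The group means were equal to within 0.00945 points (exact permutation p = 1). Over the 29 body sites the means were 43.1%, 47.6% and 34.8% in STD and 42.3%, 44.4% and 27.6% in ENR (difference -3.73, exact permutation p = 0.6). In both parts of the gene the libraries numbered 3 were the lowest of their group.

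The contrast between body and promoter, taken within each library, was next compared between groups for the 6 genes with at least 3 sites in both. In STD the body exceeded the promoter by 72.4 points in Nfatc3, 70.6 in Nfatc1, 53.9 in Nfatc2, 53.2 in Ppp3r1, 25.2 in Ppp3ca and 6.17 in Rcan1. In ENR these contrasts were 81.7, 70.4, 52.8, 29.9, 23.0 and 2.43 points. The groups overlapped for all 6 genes, and the exact permutation p lay between 0.2 and 0.9. In Rcan1 alone among the 6 genes a library, ENR replicate 3, had a body mean below its promoter mean.

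The high promoter mean of Rcan1 combined unlike stretches. The level of a start below is the mean of the covered sites within 1 kb of it, which need not lie at the start itself. Transcript starts that lay within 1 kb of one another were grouped, which gave 29 start groups in the 8 genes, of which 18 had sites. Of the 13 covered groups with a coding transcript, 11 had a mean level under 10%, and of the 5 covered groups without a coding transcript 0 did. The 2 coding exceptions were both in Rcan1. Its outermost start, of Rcan1-205, had 30.1% over 3 sites, the nearest of them 319 bp away. The 5 sites assigned to the start of Rcan1-203 had 77.2%, but all lay at least 801 bp upstream of it, in a flank that also lies in the gene Gm46555, so the start itself was not measured. Between them, the start of Rcan1-202 and Rcan1-206 had 2.07% over 9 sites, the nearest 61 bp away. The internal start of Rcan1-201 and Rcan1-207 had 0 covered sites. Stretches that hold the sites assigned to these 3 starts, and not the starts themselves, are shown for comparison, on the plus strand of GRCm38 and with the CpGs that had a value in capitals.
Rcan1-203 upstream flank, chr16:92459266-92459377: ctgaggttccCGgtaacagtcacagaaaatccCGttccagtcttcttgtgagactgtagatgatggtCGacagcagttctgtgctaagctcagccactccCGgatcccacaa
Rcan1-202 upstream stretch, chr16:92466197-92466490: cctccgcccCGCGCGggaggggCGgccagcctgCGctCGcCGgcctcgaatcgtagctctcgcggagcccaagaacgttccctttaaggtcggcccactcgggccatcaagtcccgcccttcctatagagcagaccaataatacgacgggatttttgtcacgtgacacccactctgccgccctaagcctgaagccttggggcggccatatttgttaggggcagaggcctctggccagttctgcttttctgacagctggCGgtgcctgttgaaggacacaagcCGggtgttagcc
Rcan1-205 downstream stretch, chr16:92470440-92470558: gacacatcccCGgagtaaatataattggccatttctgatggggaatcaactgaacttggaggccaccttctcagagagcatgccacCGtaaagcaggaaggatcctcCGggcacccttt

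The middle stretch held 23 CpGs, 9 of them with a value, and the other 2 stretches held 4 and 3. At the outermost Rcan1 start the libraries had 39.7%, 39.2% and 20.8% in STD and 37.8%, 38.6% and 4.55% in ENR. ENR replicate 3 was far below the rest, and the others overlapped (exact permutation p = 0.5). At the start of Rcan1-202 they had 2.54%, 0.57% and 0% in STD and 0.694%, 3.86% and 4.76% in ENR (exact permutation p = 0.2). Over all 8 genes, the windows of 1 kb either side of the 11 low covered start groups had observed to expected CpG ratios of 0.413 to 0.858 with a median of 0.746. At the 7 covered start groups with a level of 10% or more the ratios were 0.147 to 0.427 with a median of 0.3. The 11 start groups without sites had ratios of 0.0897 to 0.455. STD and ENR overlapped at each of the 18 covered start groups, where 9.44% of the promoters of all genes with at least 3 sites had no overlap, as the plot of levels by start shows.

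**Figure D2:**
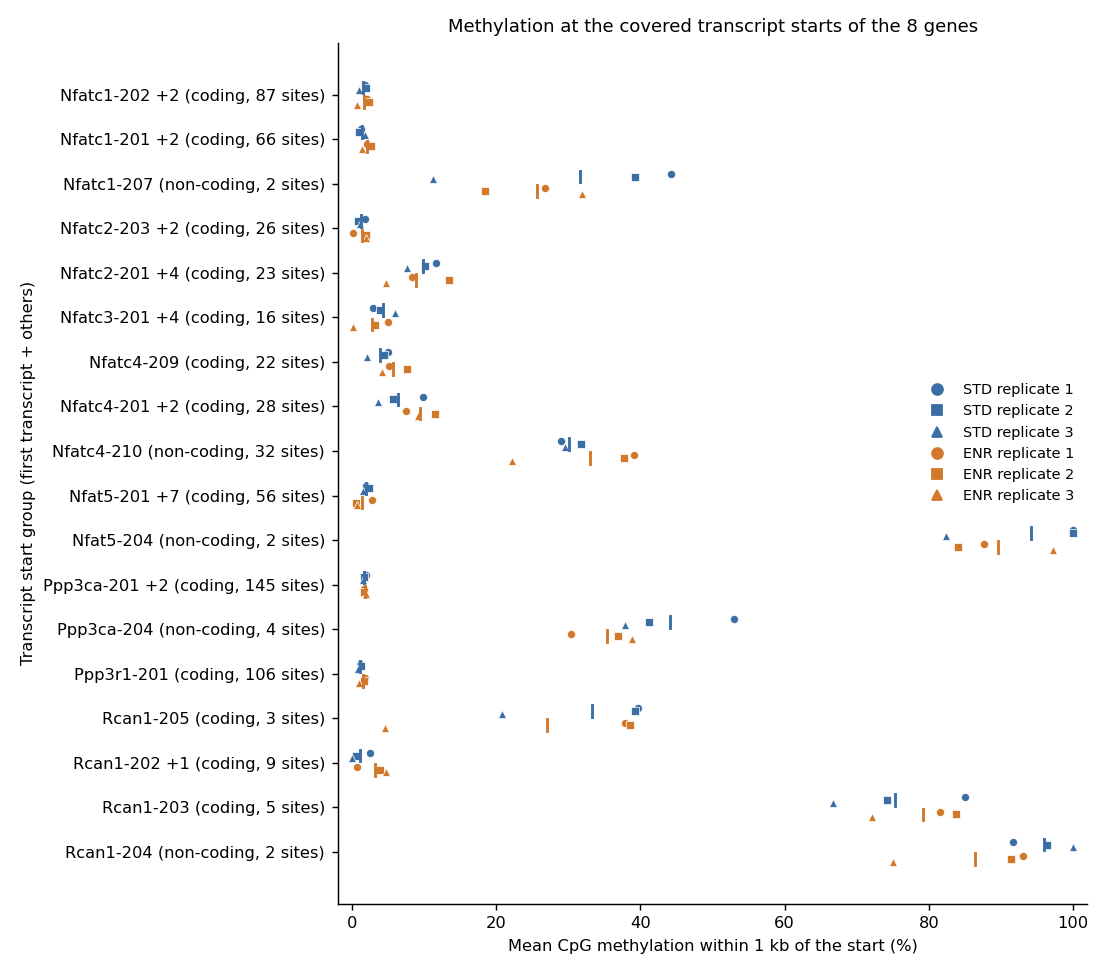
Mean CpG methylation in percent (horizontal axis) over the sites within 1 kb of each covered start group (vertical axis, named by a transcript, with its class and number of sites). Each symbol is 1 library and the short lines are group means. The sites assigned to Rcan1-205 and Rcan1-203 lie far above those of the other coding starts, and STD and ENR overlap at each of the 18 starts.

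The core letters to which NFAT proteins bind, GGAAA or TTTCC on the other strand, were looked up in RefSeq promoter windows of 300 bases (250 bases before to 50 after the gene start). Such windows were found for 6 of the 8 genes, 9 windows in all, and not for Nfatc1 and Ppp3ca. The letters were present in 6 of the 9 (66.7%), against 61.3% of the 32851 windows of all genes. A match of letters is not evidence of binding.

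Single sites were then compared, since a mean over a gene can hide them. limma, fitted across the 615152 sites that varied between libraries, called 0 of the 511 varying sites of the 8 genes at an adjusted p under 0.05 and a difference over 25 points. It called 0% of all sites, so the 0 calls do not show that methylation at the 8 genes was unchanged. The study's own test, of read numbers, did call sites changed by ENR and placed Nfatc4 among the affected genes. At an unadjusted limma p under 0.05 there were 18 of the 511 sites (3.52%), against 2.68% of all sites tested. The smallest limma adjusted p among the 511 was 0.852. The fit across gene regions called 0 of 14 promoters and bodies, with 0 at an unadjusted p under 0.05, where it called 0% of all regions and 4.05% were under that unadjusted limit. In 0 of those 14 regions did the groups fail to overlap, against 8.72% of all regions. Among 1 kb tiles with at least 3 sites, 0 of 51 were called and 2 had an unadjusted p under 0.05, against 0% and 3.98% of all tiles. The tile with the largest difference in each gene differed by -18.2 points in Nfatc2, 15.3 in Ppp3ca, -10.5 in Rcan1, 6.58 in Nfatc4, -5.34 in Nfatc3, 4.71 in Nfatc1, -1.24 in Nfat5 and 0.723 in Ppp3r1, and the groups overlapped in all of these but the Rcan1 tile. These p-values set the difference between groups against the spread between mice within a group. At single sites that spread also holds sampling error from an unknown number of reads.

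Without a test, 15 of the 803 sites (1.87%) had group means more than 25 points apart, against 1.94% of all sites. In ENR, 6 were higher (0.747%, against 0.706% of all sites) and 9 were lower (1.12%, against 1.23%). Leaving out ENR replicate 3 gave 19 higher and 9 lower sites, and leaving out ENR replicate 1 gave 7 higher and 21 lower, so the balance of directions depended on single mice. The 15 sites included some in all 8 genes, 6 in promoters and 9 in bodies. The smallest of these differences was 25.4 points, in Rcan1, and the largest below the limit was 24.7 points, in Nfatc2. The groups did not overlap at 7 of the 15 (46.7%), against 41.7% of all sites past 25 points. Over the 803 sites they did not overlap at 30 (3.74%, against 3.99% of all sites), of which 22 were lower in ENR (2.74%, against 2.34%) and 8 were higher (0.996%, against 1.65%). The shares past 25 points were thus near those of the whole table in both directions, while the share of sites higher in ENR without overlap was below it. The plot of single-site differences shows the sites by gene.

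**Figure D3:**
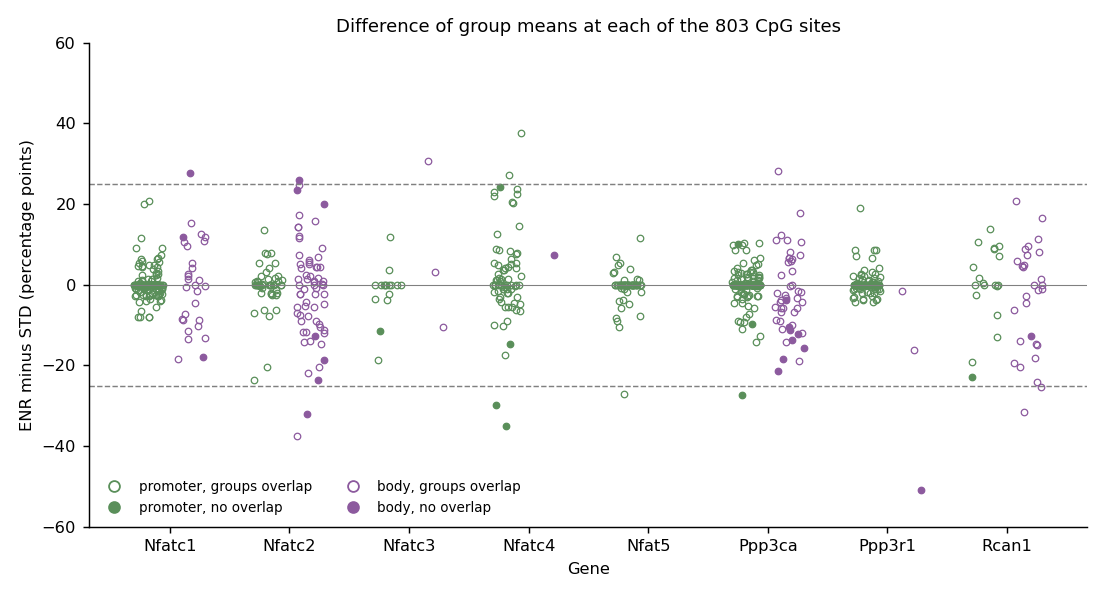
Difference of group means, ENR minus STD, in percentage points (vertical axis) at each of the 803 sites by gene, with promoter sites in green and body sites in purple. Filled symbols are the 30 sites at which the 3 STD and 3 ENR values did not overlap, and the dashed lines mark 25 points in each direction, beyond which 15 sites lie.

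The largest difference was at the Ppp3r1 intron site at position 17178957 of chromosome 11, on the minus strand, whose surrounding sequence is shown above. STD had 87.3%, 77.5% and 100% and ENR had 62.5%, 50.0% and 0%. All ENR mice were below all STD mice, and ENR replicate 3 was at 0 (difference -50.8, exact permutation p = 0.1, limma adjusted p = 0.852). This site made most of the difference in the Ppp3r1 body. Of the other 2 body sites, one was under 7% in every library and the other, which also lies in Wdr92, had 71.2% ± 0.402 in STD and 55.0% ± 39.1 in ENR (SD, n = 3 mice each).

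In Nfatc4, 3 of the 4 sites past 25 points lay in the coding stretch shown above, and they differed in both directions. The site at position 55827085 had 41.0%, 33.7% and 53.3% in STD and 7.69%, 1.72% and 13.2% in ENR, without overlap (difference -35.1, exact permutation p = 0.1, limma adjusted p = 0.852). The site at 55827063 had 65.8%, 90.3% and 66.7% in STD and 48.0%, 49.1% and 36.7% in ENR, again without overlap (difference -29.7). The third, at 55827152, had 0%, 9.52% and 21.1% in STD and 90%, 11.8% and 41.2% in ENR, and there the groups overlapped (difference 37.5). The 2 sites between them differed by less than 7 points, and all 5 were on the minus strand. Just upstream in the same exon block, the plus-strand site at 55826810 was higher in ENR without overlap, with 14.3%, 6.9% and 5.41% in STD and 26.8%, 30.8% and 41.7% in ENR (difference 24.2). Of the 32 sites of this coding block, 13 were lower and 18 higher in ENR. Its mean was 29.0%, 31.7% and 29.5% in STD and 39.1%, 37.7% and 22.2% in ENR (difference 2.94, exact permutation p = 0.6). The block thus had opposite single-site differences and no difference in its mean beyond the spread between mice.

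In Nfatc2, the lowest site without overlap was at position 168553716 in an intron. STD had 69.2%, 29.4% and 28.6% and ENR had 25%, 6.25% and 0% (difference -32.0, exact permutation p = 0.1). The site at 168553749 had 23.1%, 27.8% and 28.6% in STD and 8.33%, 0% and 0% in ENR (difference -23.7). All ENR mice were below all STD mice at 4 of the 15 sites of this stretch. Of the 15, 9 were lower and 6 higher in ENR, and the mean of the stretch was 26.2% ± 4.15 in STD and 21.7% ± 6.2 in ENR (SD, n = 3 mice each, exact permutation p = 0.4). A further intron site of Nfatc2, at 168500897, was higher in ENR, with 76.3%, 67.4% and 53.7% in STD and 88.0%, 94.1% and 92.9% in ENR (difference 25.9). The largest Nfatc2 difference was at the intron site 168510169, with 81.6%, 69.2% and 90.9% in STD and 30.0%, 71.4% and 27.6% in ENR (difference -37.6). There the groups overlapped.

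In Ppp3ca, intron stretches differed in both directions. Among those with at least 3 sites, the stretch with the largest difference was higher in ENR, at positions 136750361 to 136750668, where all 5 sites were higher. Its mean was 20.6%, 21% and 26.1% in STD and 67.4%, 35.5% and 10.6% in ENR, so that ENR replicates 1 and 2 were above all STD mice and ENR replicate 3 was below them (difference 15.3, exact permutation p = 0.6). This stretch held the site at 136750601, the higher of the 2 Ppp3ca sites past 25 points, with a difference of 28.2 and overlapping groups. A stretch at 136741817 to 136741960 had 3 of 3 sites higher (difference 7.95, exact permutation p = 0.3). The 2 Ppp3ca stretches whose sequences are shown above had mostly lower values in ENR. In the stretch at positions 136676907 to 136676980 all 10 sites were lower. Its mean was 23.6%, 11.6% and 9.27% in STD and 11.4%, 0.909% and 0.667% in ENR, so that ENR replicates 2 and 3 were below all STD mice and ENR replicate 1 lay within their range (difference -10.5, exact permutation p = 0.2). The 4 sites without overlap were all among the 5 on the plus strand. One of them, at 136676973, had 19.4%, 15.8% and 17.5% in STD and 5.88%, 0% and 0% in ENR. On the minus strand, STD replicate 3 was at 0 at all 5 sites, as were ENR replicates 2 and 3 at 4 or more of them. In the stretch at 136760179 to 136760369, 8 of 9 sites were lower, and the mean was 21.6%, 15.8% and 16.1% in STD and 12.1%, 11.3% and 8.72% in ENR. Here the groups did not overlap (difference -7.17, exact permutation p = 0.1). Neighbouring sites in a stretch can share reads, and the sites of a stretch are not replicates of the housing condition.

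The only site of Ppp3ca past 25 points without overlap, at 136834552, lay just upstream of the start of the non-coding transcript Ppp3ca-204. It had 100%, 75.9% and 74.3% in STD and 50.0%, 64.3% and 54.1% in ENR (difference -27.3, exact permutation p = 0.1). A promoter site of Ppp3ca at 136671069 was higher in ENR without overlap, with 9.09%, 0% and 0% in STD and 20%, 10% and 9.52% in ENR (difference 10.1). In Nfatc1, the intron site at 80630175 was higher in ENR, with 22.9%, 25.9% and 20% in STD and 77.4%, 42.9% and 31.8% in ENR (difference 27.8). Another Nfatc1 intron site, at 80710215, was lower, with 65.9%, 67.4% and 60% in STD and 45.8%, 42.3% and 51.4% in ENR (difference -17.9). The Nfatc3 coding site at 106058887, next to the gene start, was lower, with 11.0%, 13.5% and 10.6% in STD and 0%, 0% and 0.885% in ENR (difference -11.4). It was the only site of Nfatc3 without overlap. Rcan1 had 2 neighbouring intron sites past 25 points, at 92397229 and 92397240, and ENR replicate 3 was at 0 at both while the other ENR mice lay within the STD range. The largest Rcan1 difference without overlap was at 92459334, in the upstream flank of Rcan1-203, and this site had 87.2%, 90.7% and 85.2% in STD and 75.0%, 77.3% and 42.1% in ENR (difference -22.9). The other 4 of the 5 sites of that flank were higher in ENR, and its mean was higher by 3.87 points (exact permutation p = 0.7).

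**Figure D4:**
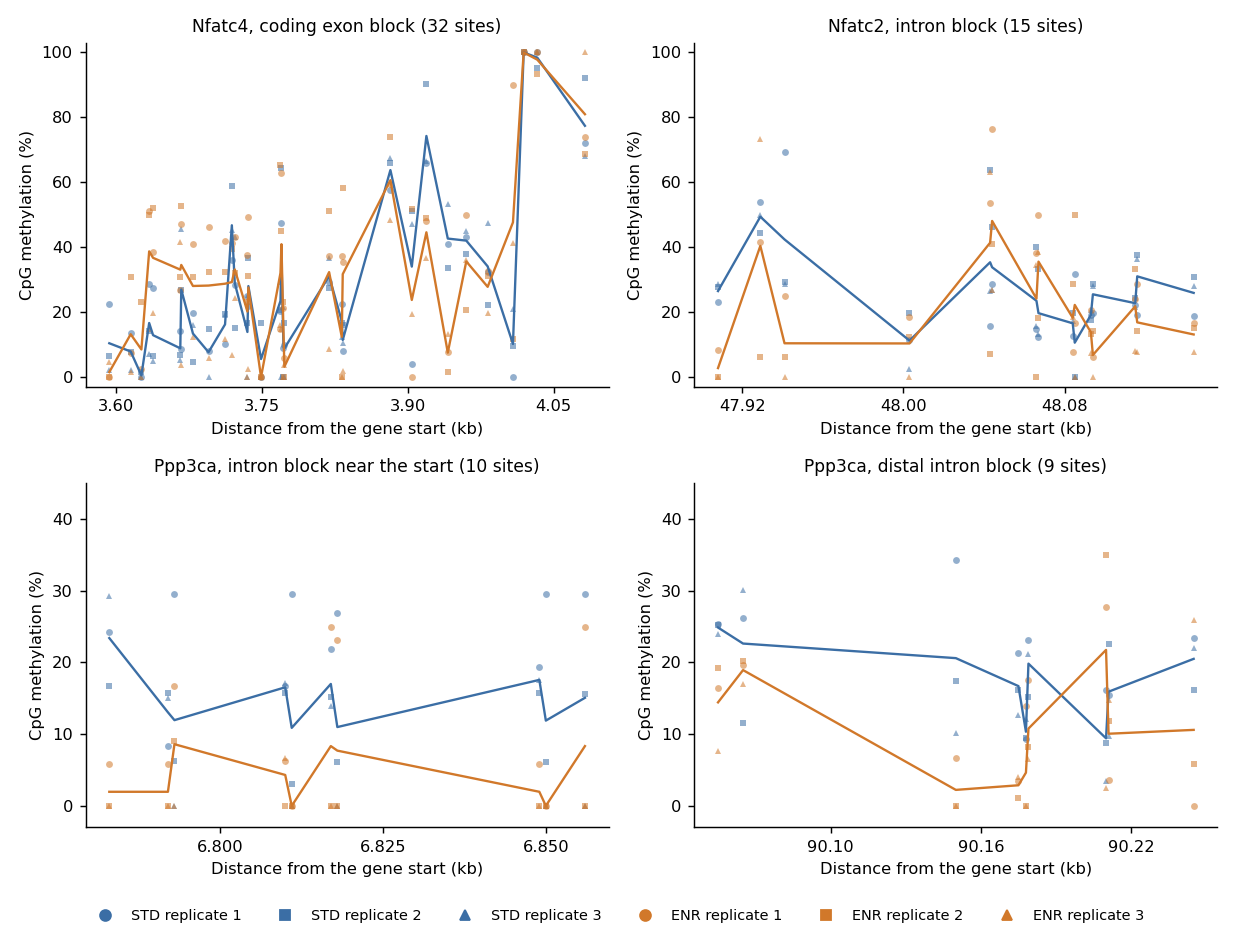
CpG methylation in percent (vertical axis) against distance from the gene start in kb (horizontal axis) for the coding block of Nfatc4, the intron stretch of Nfatc2 and the 2 intron stretches of Ppp3ca. Symbols are libraries and lines join group means, and the lower panels end at 45%. The lines cross in Nfatc4 and Nfatc2, whereas in the Ppp3ca stretches the ENR line is lower at 10 of 10 and 8 of 9 sites. The Ppp3ca stretches that were higher in ENR are not plotted.

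Grouping sites no more than 500 bp apart gave 73 stretches, 43 of them with at least 3 sites. Group means were lower in ENR in 22 of the 43 and higher in 21, and the largest difference was 18.2 points. The groups did not overlap in 3 stretches (6.98%), all lower in ENR, against 8.77% of the stretches made in the same way over the whole table and 5.32% lower in ENR. Beside the distal Ppp3ca stretch these were 3 sites in an untranslated region of Nfatc2 (93.5% ± 5.86 in STD and 82.5% ± 4.75 in ENR) and 3 intron sites of Rcan1 (96.2% ± 2.27 and 85.6% ± 10.6, SD, n = 3 mice each). ENR replicate 3 was the lowest library in each of these 3 stretches, and in 18 of the 43.

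That library was also low elsewhere. Over the 803 sites the means were 15.8%, 15.4% and 14.3% in STD and 16.4%, 15.7% and 12.7% in ENR, and over all sites of the table they were 24.3%, 24.1% and 22.5% in STD and 24.2%, 23.9% and 21.3% in ENR. ENR replicate 3 had the lowest mean of the 6 libraries in 7 of the 8 genes, all but Nfat5. At the 105 sites with a mean between 20% and 80% it had 31.0%, against 41.8% to 51.4% in the other libraries. At all sites of the table in that range it had 37.6%, against 43.6% to 52.3% in the others. Over the 8 genes the median difference between ENR and STD was -0.45 points, with 6 genes lower and 2 higher, beside a median of -0.192 over 22955 genes, of which 57.6% were lower. Without ENR replicate 3 the median over the 8 genes was 0.726 points.

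Other genes of the pathway were counted as a list of 32, chosen by role. They included further calcineurin subunits, inhibitors and anchors, NFAT kinases, genes of calcium entry and sensing, immunophilins and other substrates of calcineurin. limma called 0 of their 47 promoters and bodies, of which 19 were higher and 28 lower in ENR. The body of Tfeb, which encodes a transcription factor of lysosomal genes that calcineurin dephosphorylates, was the only region of the list with an unadjusted p under 0.05 and the only one whose groups did not overlap. This was 2.13% of the 47, against 4.05% and 8.72% of all regions. Its 8 body sites had 67.0% ± 2.26 in STD and 55.7% ± 2.49 in ENR (SD, n = 3 mice each), a difference of -11.3 points (exact permutation p = 0.1, limma adjusted p = 1). The lowest and highest differences of the list were -11.4 points in the body of Crtc1, a CREB coactivator gene, and 8.5 points in the body of Stim2, a sensor of stored calcium, and the groups overlapped at both. Of the 2033 sites of the list, 31 (1.52%) differed by more than 25 points, against 1.94% of all sites.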

How the data were processed

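RRBS data came from 6 mice, 3 STD and 3 ENR, grouped by the library labels. Per the submitters' processing notes, the authors used Trim Galore 0.4.0, cutadapt 1.8.1, Bismark 0.16.1 and methylKit 1.5.2 with mm10. The deposited values are the percent of reads methylated at each cytosine, computed by the authors for cytosines with at least 10 reads after removal of those above the 99.9 percentile of coverage. The table gives no read numbers, so site depth is unknown, no counting interval is given, and the study's test of read numbers could not be run. All columns of per-sample values were used (0 unused).

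Sites were assigned to genes with GENCODE M21 on GRCm38. limma 3.58.1 (R 4.3.3) was fitted to the percentages (variance trend, Benjamini-Hochberg adjustment) over all varying sites, over promoters and bodies of all genes and over 1 kb tiles, the latter with at least 3 sites. The procedure was tested on simulated data in which the planted differences were larger than any at the sites of the 8 genes. That test does not show whether differences of the size seen here would be called. For single means, exact permutation tests were two-sided. All 8 genes were named. Within each, the site with the largest difference among those without overlap was named in each direction that had one. Nfat5 had 0 such sites. The tile with the largest difference in each gene was named too. Further sites, stretches and starts were chosen after their values were seen. The genes and lists were chosen with earlier results of these data known. Sequences came from GRCm38.p6. Alternatives covered scale, variance model, quantile normalization, strands, medians, promoter definition, minimum sites, the limit of difference, the replicate block and each replicate left out.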

Additional observations from a re-analysis of the deposited data

How the results depend on the processing

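No site, region or tile of the 8 genes was called by limma in 10, 13 and 11 alternatives, where the lowest adjusted p ranged over 0.78 to 0.893, 0.9 to 1 and 0.92 to 1. These alternatives called 0 features of the whole table, so they could not set the 8 genes apart from the rest. The depth per site, unknown here, limits single sites. Same-numbered libraries had deviations from their group means that correlated at 0.0552, 0.0319 and 0.125, which were not all over 0.1, so the numbers were not taken to pair the mice. Of the 6 libraries, 4 correlated best with the library of their own number, and both libraries numbered 3 had the lowest mean of their group, which is a hint from the data and not from the design. The fit with the replicate number as a block gave 0 calls as well. Of the 803 sites, 36 differed by more than 20 points, 1 by more than 40 and 26 by more than 25 with group medians, and leaving out each replicate in turn gave 20 to 28, with 28 both without ENR replicate 1 and without ENR replicate 3. The median difference over the 8 genes then ranged from -1.42 (without ENR replicate 1) to 0.726 (without ENR replicate 3). The differences of single genes below, ENR minus STD in percentage points, changed sign, none of them larger than the spread between mice to begin with, and the cause was not tested. With quantile normalization, body minus promoter became 0.945 in Nfatc1, the promoter 0.0273 in Nfatc2 and 0.17 in Ppp3ca, and all sites 0.262 in Nfatc3. With medians over sites, body minus promoter became 4.23 in Nfatc1 and 2.19 in Rcan1, and the promoter -0.566 in Nfatc4 and -7.08 in Rcan1. With promoters at the gene start alone, body minus promoter became 0.235 in Nfatc1 and 4.25 in Rcan1, and the promoter 0.0913 in Nfatc2, 0.101 in Ppp3ca and -6.24 in Rcan1. With coding starts alone, a choice made after seeing the data, the body became -0.286 in Nfatc1 and the promoter 0.0974 in Ppp3ca. Leaving out each replicate gave ranges over all sites of -0.314 to 1.19 in Nfatc1, -1.76 to 0.141 in Nfatc2, -1.42 to 2.35 in Nfatc3, -1.52 to 0.0801 in Ppp3ca, -0.743 to 0.267 in Ppp3r1 and -5.22 to 2.07 in Rcan1. The promoter ranged from -1.66 to 0.406 in Nfatc2, -0.31 to 0.101 in Ppp3ca and -2.13 to 2.92 in Rcan1, and the body from -3.07 to 3.94 in Nfatc1, -6.23 to 0.495 in Ppp3ca and -7.25 to 1.5 in Rcan1. Body minus promoter ranged from -3.28 to 3.27 in Nfatc1 and -6.2 to 0.754 in Ppp3ca. Other differences kept their sign when replicates were left out. The promoter ranged from 0.0254 to 0.67 in Nfatc1, -2.63 to -0.156 in Nfatc3, -1.42 to -0.266 in Nfat5 and 0.209 to 0.666 in Ppp3r1. The body ranged from -2.7 to -0.0579 in Nfatc2 and 2.67 to 15.7 in Nfatc3. Body minus promoter ranged from 4.39 to 15.9 in Nfatc3, -34.6 to -14.5 in Ppp3r1, -2.74 to -0.187 in Nfatc2 and -5.12 to -1.09 in Rcan1. In each range that changed sign the highest value was without ENR replicate 3, except for the Ppp3ca promoter and the mean over all sites of Ppp3ca, where it was without STD replicate 1.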
